A study of Arabidopsis thaliana with 24 samples.

Results

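The comparison described here is the loss of HID1 in plants that already lack BTE1. It sets the bte1 hid1 double mutant against the bte1 single mutant, with 3 libraries of each, 6 of the 24 libraries in the series. The members were all the features of the count table that passed a filter on low counts, 21897 of 33612. All plants were Arabidopsis thaliana seedlings, harvested whole at 9 days of age from continuous white light, and poly(A) RNA was sequenced. Both groups carry the bte1 mutation and differ, per the labels, in the hid1 mutation. To see which effects of HID1 loss remained without BTE1, the hid1 single mutant was set against the Col-0 wild type (WT), again with 3 libraries each. The labels name no allele, line or clone for either mutation. The remaining 12 libraries, from 4 other genotypes, entered only the shared estimate of the spread between replicates.

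HID1 is a noncoding RNA gene known for its part in seedling responses to light. The series title is about the DREAM complex, an assembly of E2F, DP, MYB3R and retinoblastoma-type proteins that represses cell cycle genes outside the phases in which they are needed, and about WDR5a, a core subunit of the complexes that methylate histone H3 at lysine 4. HIL1 is named in the labels of another genotype of the series, in which its promoter region is mutated. Cell division in a seedling of this age is concentrated in the meristems, so transcripts of dividing cells are a small share of the RNA of a whole plant. In such bulk samples fewer cells of a type and less RNA per cell cannot be told apart.

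The 6 libraries held 21759906 to 22845468 counted reads, against 14309396 to 23912716 over the whole series. Levels below are CPM, counts put on a common depth with TMM factors. All p-values are from edgeR's quasi-likelihood test with Benjamini-Hochberg adjustment over the 21897 genes, and a gene is called where the adjusted p is under 0.05. A log2 change always has the genotype with the hid1 mutation over the one without it. Replicates are biological per the series' design text. Seed storage and oil body genes, which can mark unshed seed material, summed to at most 0.56 CPM in each of the 6 libraries. They summed to 1.04, 86.5 and 12.9 CPM in hid1 replicates 1, 2 and 3 and to 0.13 to 0.83 CPM in WT. Whether this RNA in hid1 came from seed material or from the seedlings themselves was not tested. Summed photosynthesis genes were at 80470 to 94010 CPM and all 11 root genes had reads in the 6 libraries, so green and root tissue were both sampled.

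HID1 itself had no read in the double mutant. It was at 5.37, 7.06 and 8.59 CPM in the 3 bte1 libraries and at 0 in each bte1 hid1 library. The level was at least 160.4-fold lower, taking 3 reads over the group as the floor for a count of 0, which covers counting error only. Between WT and hid1 it went from 8.61 CPM (SD 1.54, n = 3) to no read, at least 186.2-fold lower. BTE1 carries no such name in the count table or the reference annotation, so the bte1 label could not be checked in the same way.

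The loci from AT2G35743 to AT2G35760, which lie side by side in the annotation, changed in both backgrounds. AT2G35750, annotated as coding for an uncharacterised protein, was at 6.89, 8.37 and 10.2 CPM in bte1 and had no read in bte1 hid1, at least 194.1-fold lower. The snoRNA genes AT2G35744 and AT2G35747 were at 4.50 CPM (SD 0.675) and 4.84 CPM (SD 1.23) in bte1 and also had no read in bte1 hid1. AT2G35747 and AT2G35750 overlap on the same strand, so their reads cannot be told apart with certainty. AT2G35760, which codes for a CASP-like membrane protein, moved the other way. It was at 11.4, 10.8 and 11.3 CPM in bte1 and at 33.9, 30.5 and 29.6 CPM in bte1 hid1, a log2 change of 1.49 (SE 0.10, adjusted p = 8.49e-10). The change in the WT background was 1.87, and the 2 did not pass the test of their difference (-0.38, SE 0.14, adjusted p = 0.268). In bte1 hid1 the reads of AT2G35744, AT2G35747 and AT2G35750 were thus absent together with those of HID1. Effects of losing HID1 and of the changes at these adjacent loci cannot be told apart in this design. Loss of HID1 below means the hid1 mutation with these changes.

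HIL1 had its highest level in the double mutant. It was at 8.64, 8.23 and 10.7 CPM in bte1 and at 19.8, 22.8 and 18.6 CPM in bte1 hid1, with no overlap. The log2 change was 1.15 (SE 0.12, adjusted p = 3.34e-06). Between WT and hid1 HIL1 went from 0.81 CPM (SD 0.0879) to 3.88 CPM (SD 0.308), a log2 change of 2.25. The change was smaller by 1.09 on the log2 scale where BTE1 was missing (SE 0.22, adjusted p = 0.0245), a call that was lost in 8 of 17 alternative fits. These left out any 1 WT library, hid1 replicate 1 or 3, bte1 hid1 replicate 1 or 3, or bte1 replicate 3 (adjusted p = 0.055 to 0.0832). On the linear scale the gain was 11.2 CPM in the bte1 background and 3.07 CPM in the WT background, so the order of the effects depends on the scale. The pseudogene AT2G35743, annotated as a copy of AT2G35750, had nearly the same levels as HIL1, at 9.60 and 21.1 CPM in bte1 and bte1 hid1. The reference does not place HID1 or HIL1, and the strand used in counting is not given in the sources used here, so whether HIL1 and AT2G35743 share reads is uncertain.

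**Figure D1:**
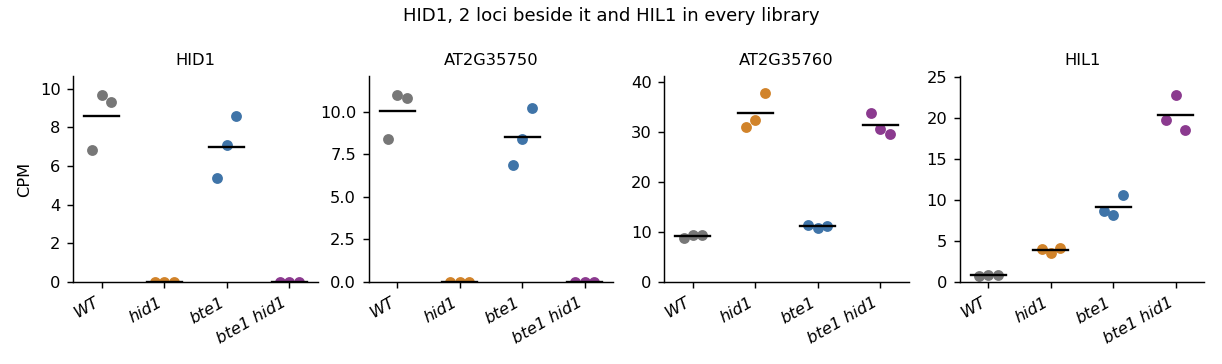
Levels of HID1, AT2G35750, AT2G35760 and HIL1 in CPM (vertical axes) in each of the 3 libraries of WT, hid1, bte1 and bte1 hid1 (points), with group means as black bars. HID1 and AT2G35750 have no read in either genotype with the hid1 mutation, AT2G35760 rises from 11.1 to 31.3 CPM on average in the bte1 background, and HIL1 is highest in bte1 hid1.

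Loss of HID1 changed few genes in the bte1 background. Between bte1 hid1 and bte1, 32 genes were higher and 17 lower, 49 in all or 0.224% of the genes tested (0.146% higher, 0.0776% lower). Of these, 26 changed by 2-fold or more, 19 up and 7 down. Without adjustment 1563 genes had a p under 0.05. The same mutation in the WT background gave 754 calls, 3.44% of the genes tested, with 378 higher (1.73%) and 376 lower (1.72%), 197 of them by 2-fold or more. That count fell to 370 or 441 when WT replicate 2 or 3 was left out, and to 412 or 349 when hid1 replicate 1 or 3 was. Leaving out hid1 replicate 2, the library with the most seed storage RNA, gave 623. The bte1 and bte1 hid1 libraries were fully separated for each of the 49 genes, as they were for 16.3% of all genes tested. Of the 49 calls, 27 held in each of 12 alternative fits and 22 were lost in at least 1.

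Of the 49 genes, 30 were called the same way in the WT background, and none was called the opposite way. The 2 comparisons share no library. The 30 genes, 20 higher and 10 lower, were 61.2% of the calls in the bte1 background and 3.98% of those in the WT background. They include HID1 itself, which had no read in either genotype with the hid1 mutation, HIL1 and the 5 loci from AT2G35743 to AT2G35760. Some of the 30 may also count the same reads, as with EMB1444 and AT1G06149 or MRD1 and HEI10. The 30 are therefore not that many independent effects. For 24 of the 30 the test of the difference between the 2 effects was not passed, and 6 passed it. The change was smaller in the bte1 background for 18 of the 30 and larger for 12.

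**Figure D2:**
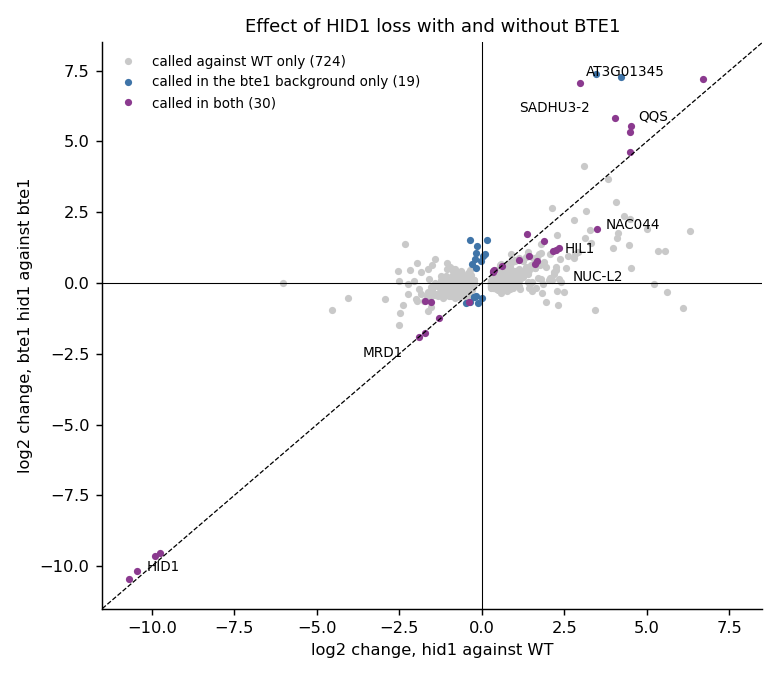
Log2 change of bte1 hid1 against bte1 (vertical axis) set against that of hid1 against WT (horizontal axis) for every gene called in either comparison, coloured by where it was called. The dashed line marks equal change, and points near 10 below 0 on both axes are the loci with no read. Most grey points, called against WT only, lie close to 0 on the vertical axis, and the 30 genes called in both lie in the same quadrant in both backgrounds.

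The 754 genes of the WT background had mostly small changes when BTE1 was absent. The 378 genes higher in hid1 had a median log2 change of 0.61 against WT and of 0.10 in the bte1 background, and 260 of them (68.8%) had the same sign. The 376 lower genes had medians of -0.61 and -0.06, with 227 (60.4%) of the same sign. Over all genes 48.9% had the same sign, and the correlation of the 2 log2 changes across genes was 0.307 (Pearson, 21897 genes, which are not independent replicates). The correlation takes in HID1 and the adjacent loci with no read, whose large changes in both backgrounds weigh on it. It was not computed without them. Of the 115 genes that rose by 2-fold or more in hid1, 39 differed by as much in the bte1 background and 16 were called. Of the 82 that fell as far, 9 differed by as much, and 9 were called. In the bte1 background 90 of the 378 and 69 of the 376 had the same sign and an unadjusted p under 0.05. Of the 754 genes, 64 passed the test of the difference between the 2 effects. For the others no difference was called, so a missing call in the bte1 background does not show a lost effect. These genes were chosen for their calls in the WT background, so the medians and counts describe them and are not a test.

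Among the kept genes with a symbol and a level of 1 CPM or more, the largest log2 rises were in a retroelement and in QQS, an orphan gene that affects starch content and is known for heritable differences in expression between plants of one accession. QQS was at 0.40, 0.23 and 0.43 CPM in bte1 and at 12, 15.2 and 23.63 CPM in bte1 hid1. The 2 groups lay far apart, with a log2 change of 5.54 (SE 0.45, adjusted p = 2.82e-07). From WT to hid1 QQS went from 1.53 to 35.1 CPM (log2 4.53). SADHU3-2, a noncoding retrotransposon that the annotation describes as methylated and silenced in some accessions, was at 0.09, 0.37 and 0.09 CPM in bte1 and at 7.91, 7.69 and 15.9 CPM in bte1 hid1. Its log2 change was 5.83 (SE 0.62, adjusted p = 1.94e-05), against 4.04 in the WT background. For neither gene was the difference between backgrounds called (adjusted p = 0.586 for QQS and 0.472 for SADHU3-2).

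NAC044, a NAC-domain factor that acts downstream of SOG1 to halt the cell cycle after DNA damage, was the 1 gene of its list called. It was at 0.81, 0.56 and 0.82 CPM in bte1 and at 2.51, 2.4 and 3.27 CPM in bte1 hid1, a log2 change of 1.89 (SE 0.26, adjusted p = 0.00018). It reached 10.7 CPM in hid1 from 0.95 CPM in WT, a log2 change of 3.49. The difference of -1.59 between the 2 changes did not pass the test (SE 0.37, adjusted p = 0.0578). ACC2, a plastid acetyl-CoA carboxylase of fatty acid synthesis, rose from 12.7 CPM (SD 0.801) to 22.0 CPM (SD 1.84), a log2 change of 0.79 (SE 0.13, adjusted p = 0.00168). Between WT and hid1 ACC2 rose from 15.4 to 48.8 CPM, and the change was smaller by 0.87 in the bte1 background (adjusted p = 0.0244). This difference was lost without WT replicate 1 or 3, hid1 replicate 2 or 3, bte1 hid1 replicate 1, or bte1 replicate 1 or 3 (adjusted p = 0.0567 to 0.0945).

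COR15B, a cold-induced chloroplast protein that protects membranes during freezing, was at 8.86, 7.30 and 6.0 CPM in bte1 and at 37.6, 17.9 and 18.4 CPM in bte1 hid1. Replicate 1 of bte1 hid1 was more than 2-fold above the other two. The log2 change was 1.74 (SE 0.32, adjusted p = 0.026), and 1.297 without that library, where the call was lost (adjusted p = 0.135). Its call was lost in 7 of 12 alternative fits, among them those without bte1 replicate 1 (adjusted p = 0.0732), 2 (0.143) or 3 (0.188). FLS5, a flavonol synthase family member, rose from 42.0 CPM (SD 5.53) to 58.3 CPM (SD 4.15), a log2 change of 0.47 (SE 0.10, adjusted p = 0.0311). Its call was lost without bte1 hid1 replicate 1 (adjusted p = 0.284) or 3 (0.0663) and without bte1 replicate 1 (0.145) or 3 (0.285). It was also lost in the fits on 12 (0.0503) and 6 libraries (0.0656). The rises in the WT background were 1.37 for COR15B and 0.37 for FLS5 on the log2 scale, and both calls there were also lost when some 1 library was left out, WT replicate 1 or 2 or hid1 replicate 3 for COR15B and any but WT replicate 1 for FLS5.

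Some of the called genes lay side by side. Of the 46 called genes with a place in the reference, 16 lay in 6 runs of adjacent genes, and 12 of these 16 were among the 30 kept. The share of adjacent genes among all genes tested was not measured, and several runs hold overlapping entries that may count the same reads. The largest run, of 5 genes, was that from AT2G35743 to AT2G35760. A run of 3 held AT1G19115, LSM1A and AT1G19130. LSM1A, a subunit of the complex that promotes mRNA decapping, fell from 15.3 CPM (SD 0.154) in bte1 to 6.45 CPM (SD 0.343) in bte1 hid1, a log2 change of -1.25 (SE 0.11, adjusted p = 8.18e-08), against -1.31 in the WT background. AT1G19115, an uncharacterised gene, rose from 0.07 to 1.99 CPM, and AT1G19130, which codes for a jelly-roll fold protein, from 28.5 to 42.8 CPM. AT1G19130 overlaps LSM1A on the opposite strand and moved against it. These locus-named genes are named for their place beside LSM1A.

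MRD1 and HEI10 formed another run and overlap on opposite strands, so without a known counting strand their reads cannot be told apart. MRD1 was named for its fall in a mutant that overaccumulates methionine, and HEI10 codes for a ligase that promotes meiotic crossovers. MRD1 was at 28.8, 27.8 and 29.4 CPM in bte1 and at 10.8, 3.51 and 8.70 CPM in bte1 hid1. HEI10 was at 32.0, 31.1 and 33.9 CPM in bte1 and at 12.8, 4.89 and 10.6 CPM in bte1 hid1. For both, replicate 2 was the lowest of the double mutant. The log2 changes were -1.90 (SE 0.32, adjusted p = 0.00917) and -1.78 (SE 0.21, adjusted p = 9.19e-05), against -1.92 and -1.74 in the WT background. In a fit on the 6 libraries alone the adjusted p was 0.209 for MRD1 and 0.18 for HEI10.

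The microRNA gene MIR843 and the pseudogene AT3G48058 beside it made a run of low counts. MIR843 had no read in WT or bte1 and was at 0.63 CPM in hid1 and 0.90 CPM in bte1 hid1, at least 20.23-fold higher in the bte1 background and at least 14.5-fold in the WT background. These are reads of polyadenylated RNA over the locus and not a measure of the mature microRNA. AT3G48058 was 55.8-fold higher in bte1 hid1 than in bte1, with a 95% counting interval of 9.62 to 2242. EMB1444, a bHLH transcription factor gene, rose from 59.7 to 78.7 CPM, a log2 change of 0.40 (SE 0.07, adjusted p = 0.00376), against 0.33 in the WT background. The entry AT1G06149, also described as a bHLH gene, had nearly the same levels, and the 2 may hold the same reads. UMAMIT17, of a family of amino acid transporters, fell from 17.5 to 10.9 CPM, a log2 change of -0.69 (SE 0.11, adjusted p = 0.00186). In the WT background its change was -0.39, and that call was lost without any 1 library but WT replicate 1 (adjusted p = 0.103 to 0.179). With all libraries in, the UMAMIT17 call against WT was also lost with RLE factors (adjusted p = 0.0514) and with no filter (0.0516).

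**Figure D3:**
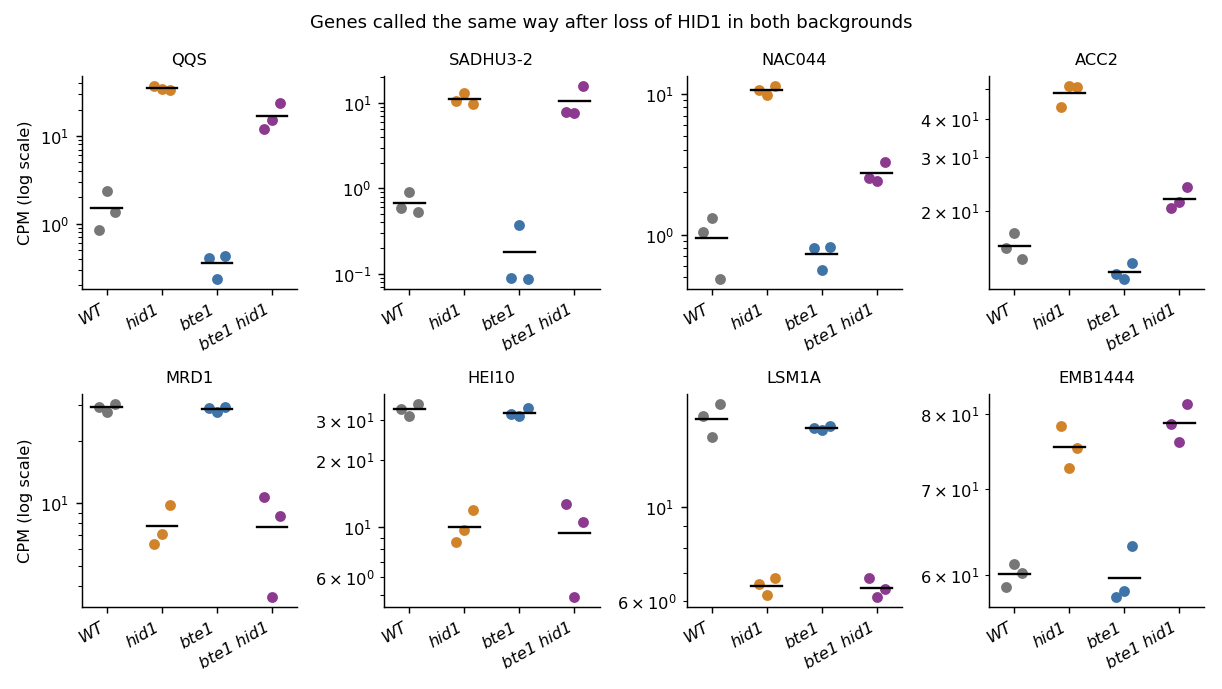
Levels in CPM on log axes of 8 genes called the same way after loss of HID1 in both backgrounds, in each of the 3 libraries per genotype (points), with group means as black bars. In all 8 panels the bte1 hid1 points lie on the same side of the bte1 points as the hid1 points do of WT, and the rise of NAC044 and ACC2 is smaller in the bte1 background, a difference called for ACC2 only.

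Entries that do not code for protein were common among the calls. They were 13 of the 32 higher genes (40.6%), 4 of the 17 lower (23.5%) and 12 of the 30 kept (40.0%), beside 4.4% of all genes tested. HID1 and the adjacent snoRNA genes AT2G35744 and AT2G35747 were among the lower and the kept. HIL1 and the pseudogene AT2G35743 were among the higher and the kept. The lower entries also held the antisense RNA AT5G15845, which may share reads with COL1. The shares without these entries were not measured. The rRNA entry AT3G41979 was at 21.0 CPM in bte1 and 49.8 CPM in bte1 hid1, and its call was lost without any 1 of the 6 libraries (adjusted p = 0.0546 to 0.194). It is a 5.8S rRNA gene, a class with near-identical copies, so its counts are uncertain.

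In 19 genes the call was made in the bte1 background and not in the WT background, 12 of them higher and 7 lower. For 9 of the 19, all of them higher, the difference between backgrounds was itself called. Over all genes that test called 75, or 0.343%, with 49 above 0 (0.224%) and 26 below (0.119%), and 2641 had an unadjusted p under 0.05. The 75 fell to 27 when WT replicate 3 was left out, to 47 or 35 for hid1 replicate 2 or 3, to 35 for bte1 hid1 replicate 1, and to 33 or 37 for bte1 replicate 1 or 3. The count rose to 247 with DESeq2 and to 356 with a fit on the 12 libraries of the 4 genotypes. The other 10 genes have calls on different sides of the threshold without a called difference. Among them the pseudogenes AT3G42090.1 and AT3G42100.1, which lie next to each other, had no read in bte1 and were at 1.01 and 0.93 CPM in bte1 hid1.

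The named genes among these 9 fell into those with a low level in bte1 and those with a high level in bte1 hid1. UGT85A2, a UDP-glycosyltransferase, was at 20.14, 22.0 and 20.6 CPM in bte1 and at 48.6, 58.0 and 47.9 CPM in bte1 hid1. Its log2 change was 1.3 (SE 0.17, adjusted p = 0.000172), against -0.15 in the WT background (difference 1.45, SE 0.23, adjusted p = 0.00573). WT and hid1 were at 64.2 and 58.1 CPM, so bte1 had the lowest mean of the 4 genotypes. CPK9, a calcium-dependent protein kinase, was also lowest in bte1, at 33.7 CPM (SD 0.677) in bte1 and 54.0 CPM (SD 2.36) in bte1 hid1, beside 53.9 CPM in WT and 44.1 CPM in hid1. Its log2 change was 0.68 (SE 0.09, adjusted p = 0.000122), with a difference of 0.97 between backgrounds (adjusted p = 0.000238). MAF4, a floral repressor of the FLC family, went from 2.49 CPM (SD 0.068) in bte1 to 5.17 CPM (SD 0.184) in bte1 hid1, beside 4.51 CPM in WT and 4.0 CPM in hid1. Its log2 change was 1.051 (SE 0.19, adjusted p = 0.00592), and the difference of 1.23 (adjusted p = 0.0299) was lost without any 1 of the 12 libraries (adjusted p = 0.0503 to 0.0945). MAF5, of the same family and picked after its values were seen, was at 3.0 and 5.64 CPM, and its log2 change of 0.91 did not pass (adjusted p = 0.0515), although the difference from the WT background did (1.45, adjusted p = 0.0197). The MAF5 difference was lost without WT replicate 1 or 3, hid1 replicate 2 or 3, bte1 hid1 replicate 3 or bte1 replicate 1 (adjusted p up to 0.0712).

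AT1G51610, annotated as a cation efflux family protein and chosen here after its values were seen, was lowest in bte1 too. It was at 9.26, 8.41 and 8.77 CPM in bte1 and at 26.7, 25.3 and 24.7 CPM in bte1 hid1, while WT and hid1 were at 27.8 and 30.9 CPM. The log2 change was 1.53 (SE 0.09, adjusted p = 2.74e-10) and the difference between backgrounds 1.38 (SE 0.13, adjusted p = 1.56e-06). ARF10, an auxin response factor of the repressor type and a target of a microRNA, differed from these, with bte1 hid1 above the other 3 genotypes. It was at 25.9, 25.3 and 25.7 CPM in bte1 and at 45.8, 45.8 and 45.9 CPM in bte1 hid1, with WT at 27.2 and hid1 at 23.7 CPM. Its log2 change was 0.84 (SE 0.09, adjusted p = 4.07e-06), with a difference of 1.04 (adjusted p = 0.000156). AT3G02420, annotated as a dihydroflavonol reductase-type protein, and the pseudogene AT5G14840 were likewise highest in bte1 hid1, at 25.3 against 51.0 CPM and 30.4 against 59.4 CPM. These last 2 were also picked after their values were seen.

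Among the 49 called genes the largest rise in CPM was that of AT3G01345, an uncharacterised protein-coding gene chosen after its values were seen. It was at 0.31, 1.02 and 0.39 CPM in bte1 and at 53.2, 82.9 and 96.7 CPM in bte1 hid1. The log2 change was 7.08 (SE 0.37, adjusted p = 5.98e-10). Between WT and hid1 this gene rose from 0.36 to 2.87 CPM, a log2 change of 2.96, so it belongs to the 30 kept genes with a larger change in the bte1 background (difference 4.12, SE 0.81, adjusted p = 0.0267). The difference was lost without WT replicate 1 or 3, hid1 replicate 3, or bte1 replicate 1 or 3 (adjusted p = 0.0667 to 0.19). It was also lost in the fit on the 12 libraries of the 4 genotypes (adjusted p = 0.143).

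**Figure D4:**
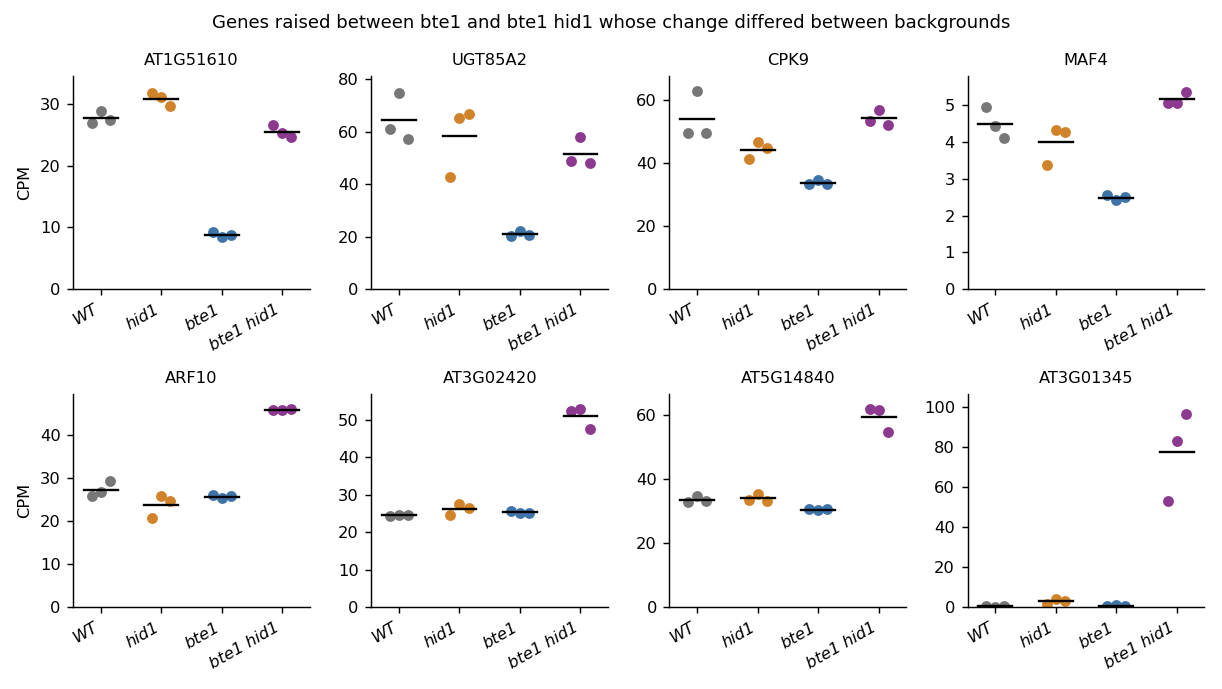
Levels in CPM of 8 genes that were higher in bte1 hid1 than in bte1 and whose change differed between backgrounds, in each of the 3 libraries per genotype (points), with group means as black bars. In AT1G51610, UGT85A2, CPK9 and MAF4 the bte1 libraries are the lowest of the 4 genotypes, and in ARF10, AT3G02420, AT5G14840 and AT3G01345 the bte1 hid1 libraries are the highest.

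Of the other named genes called in the bte1 background and not in the WT background, 3 fell and 1 rose. UGT74F2, which glucosylates salicylic acid, went from 76.4 to 46.9 CPM (log2 -0.70, adjusted p = 0.0467). COL1, a CONSTANS-like B-box protein, went from 90.0 to 63.2 CPM (log2 -0.51, adjusted p = 0.00833), and the antisense RNA AT5G15845 that overlaps it had the same values within 1 CPM, so which of them was counted is uncertain. ABCG19, a vacuolar transporter, went from 52.4 to 38.1 CPM (log2 -0.46, adjusted p = 0.0215). GulLO2, of a family of gulonolactone oxidases, rose by 0.78 (adjusted p = 0.0437). The call of UGT74F2 was lost without any 1 of the 6 libraries but bte1 hid1 replicate 2. It was also lost with no filter (adjusted p = 0.0652), with 12 libraries (0.241), with 6 libraries (0.114) and with the replicate block (0.151). That of COL1 was lost without bte1 hid1 replicate 1 (adjusted p = 0.0555) or 3 (0.109) or bte1 replicate 1 (0.055) or 2 (0.063). That of ABCG19 was lost without bte1 hid1 replicate 1 (0.282) or 3 (0.0526) or bte1 replicate 2 (0.197) or 3 (0.0753). That of GulLO2 was lost without bte1 hid1 replicate 1 (0.305) or 3 (0.143) or bte1 replicate 1 (0.142) or 3 (0.326). It was also lost in the fits on 12 (0.0746) and 6 libraries (0.097). For none of the 4 was the difference between backgrounds called.

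Some effects of HID1 loss in the WT background differed from those in bte1. Of the 378 genes higher in hid1, 26 were called in the test of the difference, 25 of them with a smaller change in the bte1 background. Of the 376 lower genes 38 were called, 37 of them with a smaller change. All these genes were chosen for their change against WT, which the test of the difference subtracts. The direction of the difference was therefore largely set by that choice. GMI1, a DNA repair gene of the structural maintenance of chromosomes type, was at 9.62, 10.6 and 11.2 CPM in bte1 and at 14.6, 13.2 and 17.2 CPM in bte1 hid1. Its log2 value of 0.51 did not pass (SE 0.12, adjusted p = 0.103), while in the WT background it rose from 9.45 to 28.7 CPM, and the changes differed by -1.09 (SE 0.17, adjusted p = 0.00407). HIK, a kinesin that builds the cell plate, was at 27.2 CPM (SD 1.43) in bte1 and 27.6 CPM (SD 2.37) in bte1 hid1, against 28.1 and 43.0 CPM in WT and hid1 (difference -0.59, adjusted p = 0.0229). DMC1, a meiotic recombinase, was at 17.3 and 14.6 CPM, against 9.76 and 14.0 CPM. NUC-L2, a nucleolin of ribosomal RNA gene chromatin, was already at 11.3 CPM (SD 1.73) in bte1 and at 16.2 CPM (SD 1.24) in bte1 hid1, and its log2 value of 0.52 did not pass (adjusted p = 0.361). With BTE1 present it rose from 1.69 to 9.92 CPM, a difference of -2.03 (SE 0.26, adjusted p = 0.000215). The differences of GMI1 and NUC-L2 held whichever library was left out. That of HIK was lost without WT replicate 2 or 3, hid1 replicate 1 or 3, bte1 hid1 replicate 1, or bte1 replicate 1 or 3 (adjusted p = 0.0578 to 0.0858), and that of DMC1 without WT replicate 3, hid1 replicate 2 or 3, bte1 hid1 replicate 1 or bte1 replicate 1 (adjusted p = 0.0555 to 0.0858).

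PAD3, which makes the defence compound camalexin, and GPT2, a plastid glucose phosphate translocator, had log2 values of -0.30 and -0.78 in the bte1 background and rose by 1.53 and 2.3 in the WT background. GPT2 was low throughout, at 1.06 CPM in bte1 and 0.61 CPM in bte1 hid1. Among genes lower in hid1, MYBL2, a repressor of anthocyanin synthesis, was at 44.7 CPM (SD 8.49) in bte1 and 53.2 CPM (SD 10.7) in bte1 hid1, with overlapping libraries, against 65.2 and 30.6 CPM in WT and hid1. PKS4, a phytochrome kinase substrate protein of phototropism, was at 7.0 and 7.5 CPM, against 8.81 and 3.73 CPM. LNG2, which promotes polar cell elongation, was at 47.4 and 57.7 CPM, against 55.0 and 43.8 CPM, and ALN, an allantoinase, at 19.6 and 23 CPM, against 29.0 and 15.6 CPM. RLP18, a receptor-like protein, was at 0.63 and 0.84 CPM, against 2.25 and 0.39 CPM, so both genotypes without BTE1 had means under 1 CPM. BOR5, of the borate transporter family, SBT3.12, a subtilase, and DML1, the DNA demethylase also called ROS1, had log2 values of -0.09, 0.34 and 0.27 in the bte1 background, none of which passed, against -1.30, -0.42 and -0.41 in the WT background. In this group the differences of LNG2 and RLP18 held whichever library was left out, and that of ALN was lost without WT replicate 3 (adjusted p = 0.0577). Those of PAD3, GPT2, MYBL2, PKS4, BOR5 and SBT3.12 were each lost without WT replicate 3 (adjusted p = 0.0575 to 0.0939) and without 5 to 7 other single libraries. For DML1 the difference was lost without 9 of the 12 libraries (adjusted p up to 0.104), and its call against WT without any of those 2 genotypes' libraries but hid1 replicate 1. The calls against WT were also lost for LNG2 without WT replicate 2 or 3 or hid1 replicate 3, and for SBT3.12 without WT replicate 1 or 3 or hid1 replicate 1 or 3.

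Genes named from here on without a call in the bte1 background were picked after their values were seen. Of 23 tested genes of mitosis and cytokinesis none was called between bte1 hid1 and bte1 with edgeR or DESeq2, and 1 had an unadjusted p under 0.05. Over all 21897 genes 1563 had such a p, the share to set beside the counts of each list below. The median log2 change of the list was 0.08, beside 0.0015 over all genes. In hid1 against WT 11 of the 23 were higher, beside 1.73% of all genes tested, and the median was 0.48. Over all genes 3.44% were called in that comparison and 0.224% between bte1 hid1 and bte1. These shares apply to the lists below as well. The mitotic cyclin CYCB1;1 was at 7.48 CPM (SD 0.81) in bte1 and 9.01 CPM (SD 1.6) in bte1 hid1, and rose from 6.89 to 12.9 CPM between WT and hid1. CDC20.1, an activator of the anaphase-promoting complex, was at 38.4 and 38.7 CPM in bte1 and bte1 hid1. In this list HIK was the 1 gene with a called difference between backgrounds, and CYCB1;1 did not pass (-0.63, adjusted p = 0.212).

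In the DNA damage and repair list NAC044 was called of 16 (2 with DESeq2), with a median of 0.06, beside 7 called and a median of 0.36 in the WT background. GMI1 and AT4G19130, a subunit of the single-strand DNA binding complex RPA, had called differences, and AT4G19130 was at 2.72 and 2.63 CPM in bte1 and bte1 hid1. RAD54 and BRCA1, both of homologous recombination, were at -0.07 and -0.04 on the log2 scale, and rose by 0.64 and 0.49 in the WT background. None of 22 DNA replication genes was called with either tool, and none had an unadjusted p under 0.05 (median 0.02, against 0.23 with 2 called in the WT background). None of 19 replicative histone genes was called with either tool or had an unadjusted p under 0.05, and all 19 had log2 values below 0 (median -0.09), against a median of 0.17 with 2 called in the WT background. Histone genes of one class are near-identical copies, so reads may have been split between them.

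Of 22 DREAM and E2F family genes none was called in the bte1 background with either tool and 1 had an unadjusted p under 0.05, with a median of 0.03. RBR1, the retinoblastoma homolog, was at 70.7 CPM (SD 2.7) in bte1 and 71.1 CPM (SD 0.16) in bte1 hid1. The gene listed as E2FA was at 12.9 and 14.0 CPM, and SOL1 (AT3G22760), the 1 member higher in hid1, at 10.4 and 10.7 CPM. None of 11 H3K4 methylation genes was called in either background, none had an unadjusted p under 0.05 in the bte1 background, and WDR5a was at 4.88 CPM (SD 0.87) in bte1 and 5.39 CPM (SD 0.23) in bte1 hid1. Of 10 DNA methylation genes none was called and 2 had an unadjusted p under 0.05 (median 0.08), while in hid1 against WT DML1 fell and 3 members rose, among them the maintenance methyltransferase MET1.

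The lists of light, clock and auxin genes had no call in the bte1 background, and none of their members named here had a called difference between backgrounds. At an unadjusted p under 0.05 the light signalling, clock and auxin lists held 3, 4 and 1 genes there, beside 1563 of all 21897. DESeq2 called no member of these lists there. The light signalling list had none of 17 called (median 0.05, against -0.20 with PIL6, also called PIF5, lower in hid1). The clock list had none of 12 called (1 in the fit on 12 libraries), with CCA1 at -0.37, LHY at -0.35 and RVE8 at -0.22, each of which was lower in hid1 with a called log2 change of -0.69, -0.60 and -0.63. The adjusted p of the difference was 0.193 for PIL6, 0.649 for CCA1, 0.717 for LHY and 0.264 for RVE8. The auxin response list had none of 12 called and a median of 0.14, against -0.54 and 3 called lower in hid1, IAA19, GH3.3 and PIN3. PIN3, an auxin efflux carrier, was at 190.1 CPM in bte1 and 191.7 CPM in bte1 hid1. In the flowering list MAF4 was the 1 call of 11 (2 with DESeq2), with a median of 0.09, and FLC itself was at 6.09 CPM (SD 0.73) and 9.16 CPM (SD 2.4), with an adjusted p of 0.428.

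The cold response list stood at the other end. All 10 members had log2 values above 0, with a median of 0.79. An unadjusted p under 0.05 was found for 8 of them, beside 1563 of all 21897 genes. COR15B was the 1 call (none in the fit on 12 libraries). COR15A, its paralog, was at 5.78 CPM (SD 1.7) in bte1 and 18.7 CPM (SD 13) in bte1 hid1 (log2 1.70, SE 0.49, adjusted p = 0.331), and as a near copy of COR15B it may share reads with it. KIN2 was at 64.9 CPM (SD 12) and 128.7 CPM (SD 54), with an adjusted p of 0.398. Against WT, hid1 had 7 of the 10 above 0, with a median of 0.39 and COR15B as the 1 call. The phosphate starvation list had all 11 members below 0, with a median of -0.42, none called with either tool and 1 at an unadjusted p under 0.05. PAP17, an acid phosphatase, was at 79.0 CPM (SD 1.5) and 56.5 CPM (SD 23). Members of a list were measured in the same libraries and are not independent, so a common sign is no test.

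The remaining lists had no call in the bte1 background with edgeR or DESeq2, and 0 to 3 members of each had an unadjusted p under 0.05. Their medians were -0.30 for 12 salicylic acid genes, -0.21 for 10 flavonoid genes, -0.16 for 5 heat shock genes, -0.08 for 8 nitrate genes, -0.04 for 11 iron deficiency genes, -0.02 for 21 photosynthesis genes, 0.17 for 11 jasmonate genes and 0.19 for 11 root transporter and regulator genes. In the WT background these lists held 0, 1, 1, 3, 0, 0, 1 and 1 called genes in the same order, beside 3.44% of all genes. The 10 seed maturation genes tested had a median of 0.00 in the bte1 background. In the WT background their median was 5.35 with none called, in the libraries where hid1 replicate 2 had the highest seed storage level.

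**Figure D5:**
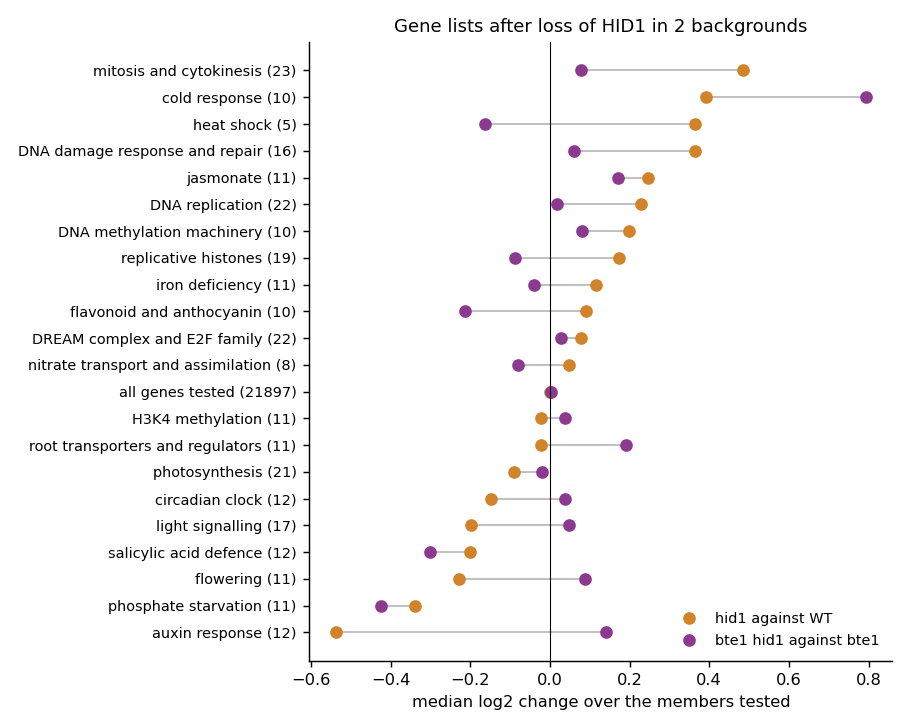
Median log2 change over the tested members of each list (number in brackets) for hid1 against WT (orange) and bte1 hid1 against bte1 (purple), joined by a grey line. The seed maturation list is left out because its median in hid1 is off the scale. Mitosis, DNA damage and auxin medians lie nearer 0 in the bte1 background. The cold response median lies farther from 0, as do those of phosphate starvation, salicylic acid, flavonoid and root genes, among others.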

How the data were processed

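Per the labels' protocols, poly(A) RNA of whole seedlings was made into TruSeq libraries and sequenced on an Illumina HiSeq. Per the submitters' processing notes, fastp, HISAT2 2.1.0, SAMtools 1.6 and the TAIR10 build were used. The counting tool and its strand setting are not given in the sources used here. The deposited table holds raw whole-number counts that the authors made for 33612 features in 24 libraries (8 genotypes, 3 replicates each), and the deposited FPKM table was not used. Names came from the TAIR10.1 annotation (32843 features matched, 10658 with a symbol). Since the builds differ, no coordinates are given.

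The counts were fitted with edgeR 4.0.16 in R 4.3.3, in 1 one-way fit on all 24 libraries: TMM scaling, filterByExpr by genotype (11715 features removed), robust quasi-likelihood dispersions (biological coefficient of variation 0.106), F tests and Benjamini-Hochberg adjustment at 0.05. The 3 contrasts were bte1 hid1 against bte1, hid1 against WT, and the difference of these log2 changes. The standard error of a log2 change is its size over the square root of F. A group with no read was given a floor of 3 reads over the group, and where it had 1 to 3 the ratio of reads is printed with a 95% counting interval. The scripts were tested on simulated counts with known changes.

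Named genes were HID1, HIL1 and adjacent loci, and among called genes with a symbol the 15 highest and 15 lowest whose libraries were separated and whose higher mean was 1 CPM or more, up to 8 kept and up to 8 differing effects in each direction, up to 6 called only in the bte1 background, and up to 3 called members of each of 22 lists (302 members, 295 tested). The members, lists and rules were chosen with earlier results of these data known. Alternatives were RLE factors, no filter, DESeq2 1.42.0, fits on 12 or 6 libraries, the replicate number as a block, and leaving out each library. Replicates differed by more than sampling noise (chi-square per degree of freedom 4.38 to 10 in the 4 genotypes), so none was counted as a copy.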

Additional observations from a re-analysis of the deposited data

Results flagged for a closer look

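The effects of HID1 loss in the 2 backgrounds were compared in a test of their difference, which called 75 genes. Each value here is the log2 change in the bte1 background minus that in the WT background, from edgeR with Benjamini-Hochberg adjustment at 0.05. For genes chosen by a call in either background, the sign of this value was largely set by the choice. Among genes that rose in hid1 the difference was -1.095 for HIL1, -0.87 for ACC2, -2.03 for NUC-L2, -1.09 for GMI1, -0.76 for DMC1, -0.59 for HIK, -1.82 for PAD3 and -3.08 for GPT2. Among genes that fell in hid1 it was 0.61 for LNG2, 2.94 for RLP18, 1.12 for ALN, 1.34 for MYBL2, 0.75 for SBT3.12, 1.34 for PKS4, 1.21 for BOR5 and 0.68 for DML1. Among genes called in the bte1 background alone it was 1.45 for UGT85A2, 1.23 for MAF4, 1.04 for ARF10 and 0.97 for CPK9. Of the 75 calls, 24 held in each of 17 alternative fits, among them those of UGT85A2, ARF10, CPK9, NUC-L2, GMI1, LNG2 and RLP18.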

How the results depend on the processing

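The 49 calls in the bte1 background became 90 with DESeq2, 84 with the 12 libraries of the 4 genotypes, 74 with 6 libraries and 35 to 67 without 1 library. The 754 calls in the WT background became 1312 with 12 libraries and 349 to 623 without 1 library. The 30 genes called the same way became 47 with 12 libraries and 22 to 33 without 1 library. The 75 called differences became 247 with DESeq2, 356 with 12 libraries and 27 to 79 without 1 library. RLE factors and no filter kept each count within 1.5 times. In the bte1 background no called value of a named gene changed sign, and over the 41 genes named by the rule that call was lost in 38 cases, all in the 8 genes COR15B, UGT74F2, GulLO2, FLS5, COL1, ABCG19, MRD1 and HEI10. GMI1 was called with DESeq2 (adjusted p = 0.034). Scaling moved the median of all genes by less than 0.01.

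Genotypes share replicate numbers in the labels. Deviations of libraries with the same number correlated at 0.0855, 0.118 and 0.163 in the bte1 background, where each library correlated best with its own number. In the WT background these correlations were 0.112, 0.113 and -0.0121, and replicates 1 and 2 correlated best with their own number. The labels name no batch, so the main fit took no account of the number. Whether libraries with the same number were handled together was not tested, and the counts depend on this choice. With the replicate block, in a fit on the 12 libraries of the 4 genotypes, the 4 counts were 146, 1777, 70 and 599 in the order above.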
